A study of Mus musculus with 20 samples.

Results

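The 41 genes described here encode the proton pump of the lysosome, lysosomal enzymes and membrane proteins, and proteins of autophagy. They were taken by gene symbol from a given list, and all 41 were found among the 50686 genes of the deposited tables and passed the low-count filter, which left 16042 genes. They comprise 16 general pump subunits and accessory proteins, the pump subunit Atp6v0d2, 10 lysosomal enzymes, 5 lysosomal membrane proteins, 5 autophagy genes, 2 receptors that deliver enzymes to the lysosome, and the lipid-handling proteins Npc2 and Psap. RNA was sequenced from RAW264.7 cells, an established mouse monocyte and macrophage line from which RANKL, the cytokine that drives osteoclast formation, produces osteoclast-like cells. Cells were given RANKL (50 ng/ml) together with I-BET (500 nM), RANKL alone or I-BET alone, each for 4, 14 or 24 hours, or were left untreated (hour 0). I-BET is an inhibitor of BET bromodomain proteins, which bind acetylated chromatin and promote transcription. Each of the 10 groups had 2 libraries, 20 in all, every group came from the same cell line, and no genotype differed between them. The labels name bone marrow as the source and RAW264.7 as the cell line, and the line is followed here. The title and time field of the untreated libraries give hour 0, while their descriptions begin with a 4, as those of the 4-hour libraries do, without saying what it means. With the untreated cells at a single time, treatment and time in culture cannot be told apart in comparisons with them.

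The proton pump of lysosomes (V-ATPase) has a V1 sector, which splits ATP in the cytoplasm, and a V0 sector, which passes protons through the membrane. Several subunits exist as alternative forms: the d subunit is made from Atp6v0d1 in most cells and from Atp6v0d2 in osteoclasts and some other cells, and the a subunit of the osteoclast ruffled border is a3, made from Tcirg1. Osteoclasts move this pump to the cell surface and acidify the space over bone, where they also release lysosomal enzymes. Autophagy brings cytoplasmic material to the same lysosomes, and MITF, TFEB and TFE3 are known regulators of lysosomal and autophagy genes through a short promoter element called CLEAR, which contains the E-box letters CACGTG.

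Library totals ran from 19051780 to 62313792 counts, and the members' counts were at least 29 in every library, the lowest being those of Wipi1. Levels are given as RPKM (reads scaled by gene length and library total), the deposited unit, in the order library 1 and library 2. In the second untreated library 5 genes took up 10.1% of all reads counted (0.370% to 1.19% elsewhere), which lowers its RPKM of the remaining genes. Among these 5 were the mitochondrial rRNA genes mt-Rnr1 and mt-Rnr2, and Lars2. Fold changes are on the log2 scale with their standard error (SE), from counts scaled by TMM factors, and adjusted p comes from edgeR's quasi-likelihood test with Benjamini-Hochberg adjustment over the 16042 genes. A gene was called, and is said to have risen or fallen, at adjusted p under 0.05. A call is said to be lost where leaving out 1 library took it out of that range. Those fits, like the main one, did not pair libraries by number. Shifts between library numbers therefore entered them, and their part in the lost calls was not tested. The labels do not say that the 2 libraries of a group came from separate cultures, so the p-values speak only of the spread among these libraries, which may be technical. Markers followed the labels: 7 to 9 of 10 macrophage markers reached 1 RPKM in each library, and 0 of 17 markers of non-myeloid cells did. The 10 macrophage markers summed to 1219 to 1450 RPKM with RANKL at 24 hours against 4861 to 4999 RPKM in untreated cells, and 9 of them fell. With RANKL+I-BET at 24 hours they summed to 2431 to 2802 RPKM, and 6 rose and 1 fell against RANKL. The 10 osteoclast markers summed to 411 to 467 RPKM with RANKL at 24 hours against 92.5 to 152 RPKM in untreated cells, and to 53.6 to 54.2 RPKM with RANKL+I-BET, where 8 of the 9 tested fell against RANKL. In bulk RNA, fewer cells of a type and less RNA per cell cannot be told apart, and the part of these marker changes in the results below was not tested.

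In level, the members spanned Psap, the precursor of the saposins that assist lipid breakdown (183 to 511 RPKM), and Lamp1, a main protein of the lysosomal membrane (205 to 401 RPKM), at the top. At the bottom stood Wipi1, which binds the forming autophagosome (0.128 to 0.964 RPKM). Among pump genes Atp6v1g1 had the highest median over the 20 libraries (111 RPKM) and Atp6v0d2 the lowest (5.11 RPKM). Atp6v0c, the proton-carrying ring subunit, had a median of only 5.98 RPKM. Its processed copy Atp6v0c-ps2 held 928 to 5868 counts against 291 to 1258 counts of Atp6v0c, so the counts of Atp6v0c may be split between near-identical copies and its values are uncertain. The strand setting of the counting is not given in the sources used here. Exons of Gabarapl1 (28.3% of its exon bases), Uvrag (17.6%), Sqstm1 (17.3%), Hexa (12.8%) and Lamp1 (9.31%) overlap a gene on the opposite strand, and reads of the partners cannot be told apart without that setting.

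Promoter windows from 250 bases before to 50 bases after the annotated start were at hand for 33 of the 41 genes in the RefSeq table of GRCm38.p6. The E-box CACGTG, which reads the same on both strands and is also bound by MYC with MAX, was present in 11 of these 33 windows (33.3%), against 2187 of 27025 windows of all genes (8.09%). The core of the CLEAR element, TCACGTGA, which contains the E-box, was present in 6 of 33 (18.2%), against 304 of 27025 (1.12%). The antioxidant element TGACNNNGC, searched on both strands, was in 7 of 33 (21.2%), against 14.0% of all windows. The 11 genes with an E-box were Atp6v0b, Atp6v0d1, Atp6v0e, Atp6v1a, Gaa, Gla, Glb1, Igf2r, Lamp1, Lgmn and Mcoln1. The 4 found with 2 E-boxes upstream of the gene are shown. Atp6v1a was not counted for this, because too short a stretch of its window lay upstream of the gene. With RANKL+I-BET against RANKL at 24 hours Lamp1 was called higher (log2 fold change 0.66). Atp6v0b (0.32), Gla (0.22) and Igf2r (-0.46) were not called, and differences among the 4 genes were not tested. The stretch upstream of the gene is written 5′ to 3′ on the gene's strand, in lower case with each E-box in capitals, at chr8:13158911-13159134 (plus strand) for Lamp1, chrX:134601126-134601255 (minus strand) for Gla, chr17:12769707-12769956 (minus strand) for Igf2r and chr4:117887334-117887579 (minus strand) for Atp6v0b.
Lamp1: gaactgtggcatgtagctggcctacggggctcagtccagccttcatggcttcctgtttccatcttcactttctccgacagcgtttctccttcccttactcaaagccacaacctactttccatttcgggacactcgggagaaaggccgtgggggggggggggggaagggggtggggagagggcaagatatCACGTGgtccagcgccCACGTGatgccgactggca
Gla: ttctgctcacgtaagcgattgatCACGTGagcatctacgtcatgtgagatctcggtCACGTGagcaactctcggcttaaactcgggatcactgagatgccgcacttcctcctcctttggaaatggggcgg
Igf2r: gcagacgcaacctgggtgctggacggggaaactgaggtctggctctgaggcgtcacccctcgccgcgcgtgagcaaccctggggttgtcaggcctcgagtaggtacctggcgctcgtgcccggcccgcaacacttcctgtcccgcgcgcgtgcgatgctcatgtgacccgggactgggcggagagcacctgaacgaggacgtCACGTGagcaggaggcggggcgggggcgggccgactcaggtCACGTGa
Atp6v0b: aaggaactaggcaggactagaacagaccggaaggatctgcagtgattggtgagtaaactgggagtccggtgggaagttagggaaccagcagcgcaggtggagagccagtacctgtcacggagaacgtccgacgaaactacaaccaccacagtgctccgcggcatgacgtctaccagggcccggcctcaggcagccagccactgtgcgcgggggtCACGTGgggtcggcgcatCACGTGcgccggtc
In Lamp1 the E-boxes begin 35 and 19 bases before the gene, in Atp6v0b 32 and 14 bases and in Gla 107 and 74 bases. In Igf2r they begin 48 and 7 bases before the annotated RefSeq start. That start lies upstream of the deposited gene, which begins at chr17:12769664 on the minus strand, so these distances are not counted from the gene. Both E-boxes of Gla and both of Igf2r lie within the longer core TCACGTGA, and those of Lamp1 and Atp6v0b do not. Of the 11 genes with an E-box and the 22 without one, some rose and some fell. With RANKL+I-BET against RANKL at 24 hours these were 4 rises and 1 fall with an E-box (median log2 fold change 0.32), and 7 rises and 2 falls without one (median 0.14). At 14 hours the medians stood in the other order, with 2 rises and 0 falls with an E-box (median 0.17), and 7 rises and 3 falls without one (median 0.26). At 4 hours 0 genes with an E-box were called (median 0.01), and 3 rose and 0 fell without one (median 0.12). With RANKL against untreated cells the genes with an E-box gave 0 rises and 0 falls at 4 hours (median -0.09), 0 and 4 at 14 hours (median -0.22) and 1 and 2 at 24 hours (median -0.22). Those without one gave 1 rise and 1 fall (median -0.03), 4 and 6 (median -0.12) and 4 and 4 (median 0.00) at these hours. A match of letters is a description of the window and not a measured binding site.

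RANKL against untreated cells asks how the lysosomal genes moved as osteoclast formation began. After 24 hours pump subunits of the V1 sector and Atp6v0d2 were higher, whereas the enzymes Lgmn and Lipa, the membrane proteins Lamp2 and Npc1, and the pump subunits Atp6v0a1 and Atp6v0d1 were lower. Of the 41 genes 9 rose and 7 fell, against 8.04% and 10.9% of all genes tested (18.9% in either direction). At 14 hours 6 rose and 11 fell (8.31% and 10.1% of all genes, 18.4% in either direction), and at 4 hours 2 rose and 1 fell (2.08% and 1.83%, 3.91% in either direction). The median over the 41 genes at 24 hours was a log2 fold change of 0.02, beside 0.05 over all genes. Fitting the library number as a block gave 14 rises and 14 falls at 24 hours (18.7% and 18.1% of all genes), 11 and 15 at 14 hours (19.1% and 17.2%) and 3 and 3 at 4 hours (6.72% and 7.77%).

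**Figure D1:**
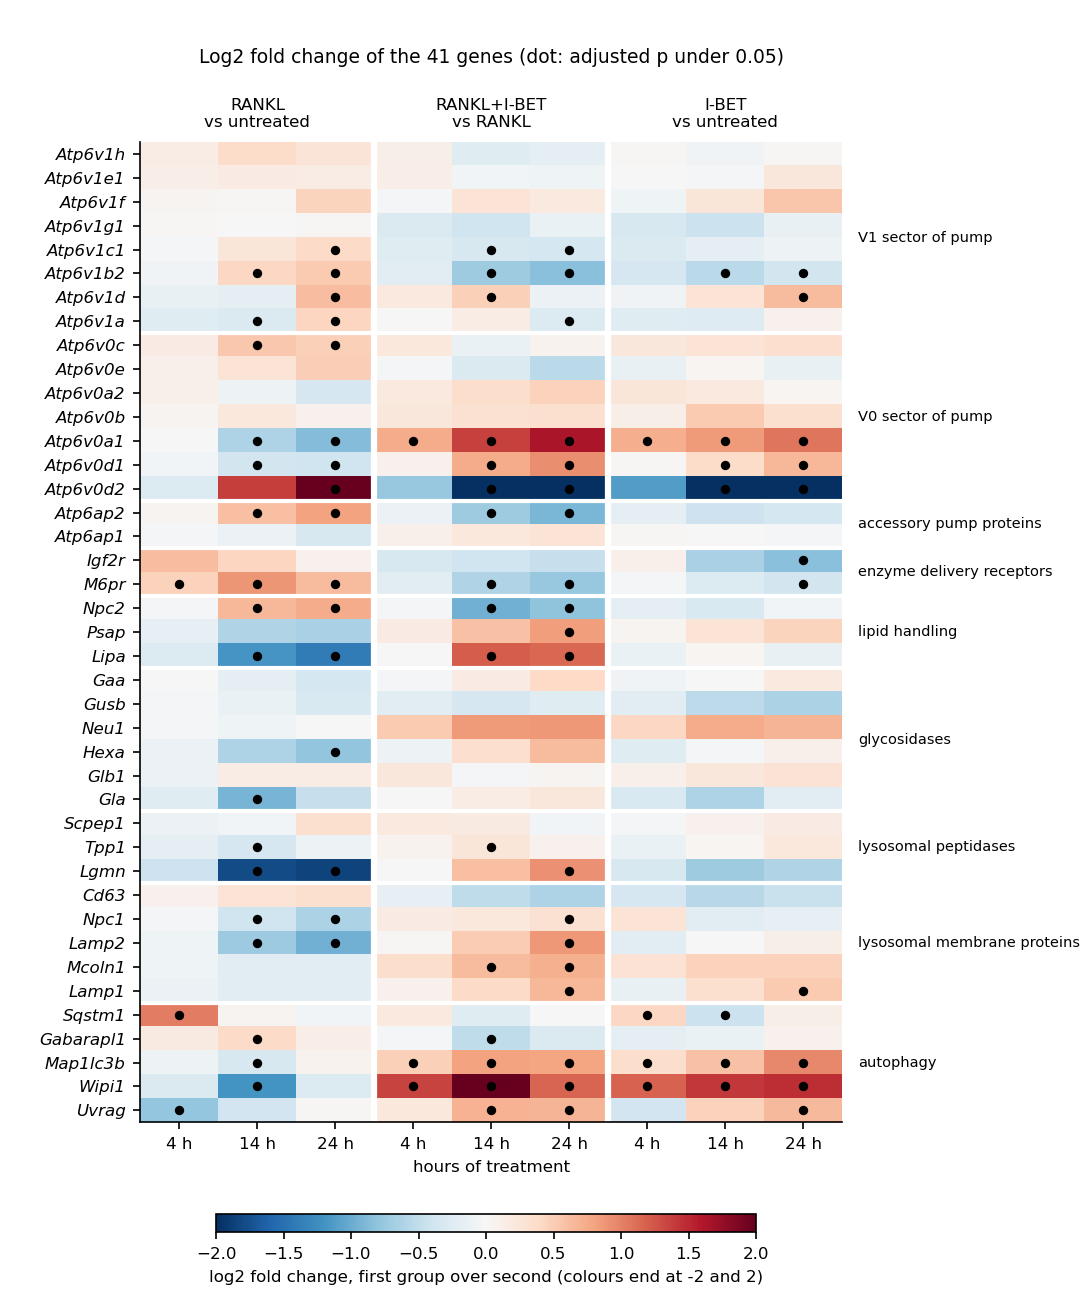
Log2 fold changes of the 41 genes (rows, grouped by role) in 9 comparisons (columns), with colour limited to the range from -2 to 2 and a dot where adjusted p was under 0.05. With RANKL at 24 hours 9 genes rose and 7 fell, and with RANKL+I-BET against RANKL 12 rose and 7 fell.

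RANKL+I-BET against RANKL alone asks what BET inhibition did to that course. At 24 hours Atp6v0d2 fell the most of the 41 genes, Atp6ap2, Atp6v1b2, Npc2 and M6pr fell by less, and Atp6v0a1, Wipi1, Lipa and Atp6v0d1 rose. In number 12 rose and 7 fell, against 13.9% and 12.9% of all genes (26.8% in either direction). At 14 hours 9 rose and 7 fell (10.8% and 11.2% of all genes, 22.1% in either direction), and at 4 hours 3 rose and 0 fell (4.93% and 6.46%, 11.4% in either direction). Of the 41 genes, 4 had an unadjusted p under 0.05 at 4 hours, and DESeq2 also called 3 higher and 0 lower there. With the block 19 rose and 13 fell at 24 hours, 20 and 13 at 14 hours, and 8 and 4 at 4 hours, where 13.7% and 14.4% of all genes were called, against 19.7% and 20.6% at 14 hours and 23.1% and 23.5% at 24 hours. This comparison shares its RANKL libraries with the comparison of RANKL with untreated cells, so opposite signs of a gene in both are not independent.

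I-BET alone against untreated cells lowered Atp6v0d2 and raised Atp6v0a1, Atp6v0d1 and Map1lc3b at 14 and 24 hours. At 24 hours 7 of the 41 genes rose and 4 fell, against 7.5% and 10.2% of all genes (17.7% in either direction). At 14 hours 4 rose and 3 fell (5.29% and 8.37%, 13.7% in either direction), and at 4 hours 4 rose and 0 fell (4.03% and 6.48%, 10.5% in either direction). At 4 hours 10 of the 41 had an unadjusted p under 0.05, and DESeq2 called 5 higher and 2 lower. With the block the counts were 16 and 8 at 24 hours (18.1% and 18.1% of all genes), 13 and 15 at 14 hours (14.4% and 15.4%) and 8 and 10 at 4 hours (12.8% and 16.2%). Scaling by library totals in place of TMM factors moves the median of all genes by 0.16 in I-BET against untreated cells at 4 hours, and it gave 8 rises and 2 falls at 14 hours and 10 and 2 at 24 hours. RLE factors gave 4 and 5 at 14 hours. These comparisons share the untreated libraries with those of RANKL. RANKL+I-BET against I-BET alone gave 1 rise and 0 falls at 4 hours, the rise being that of the autophagy receptor Sqstm1 (0.48% and 0.0374% of all genes, 0.517% in either direction). At 14 hours it gave 1 rise and 0 falls, the rise being that of the delivery receptor M6pr (0.549% and 0.355%, 0.904% in either direction). At these hours 4 and 3 of the 41 genes had an unadjusted p under 0.05, and DESeq2 gave the same counts of calls. At 24 hours 0 of the 41 genes were called by edgeR or DESeq2 (0.106% higher and 0.156% lower among all genes, 0.262% in either direction), and 4 had an unadjusted p under 0.05. With the block 2 rises and 0 falls were called at 4 hours, 6 and 3 at 14 hours and 0 and 2 at 24 hours, against 3.07%, 6.58% and 2.95% of all genes in either direction.

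The 2 forms of the d subunit, which couples the sectors of the pump, moved in opposite directions. Atp6v0d2 (ENSMUSG00000028238, chr4:19876841-19922605 in mm10) had 75.00 and 49.6 RPKM with RANKL at 24 hours and 40.1 and 19.9 RPKM at 14 hours, against 16.4 and 7.03 RPKM in untreated cells. Both RANKL groups lay above the untreated libraries, and the values at 4 hours (13.3 and 6.62 RPKM) overlapped them. Its rise was called at 24 hours (log2 fold change 2.40, SE 0.62, adjusted p = 0.0141) and not at 14 hours (log2 fold change 1.38, SE 0.60, adjusted p = 0.139), where the block gave 2.92e-08. The call of Atp6v0d2 in RANKL against untreated cells at 24 hours was lost without RANKL library 1 (log2 fold change 2.09) or untreated library 2 (log2 fold change 1.94). In RANKL+I-BET cells it had 1.36 and 0.608 RPKM at 14 hours and 1.30 and 0.498 RPKM at 24 hours, and with I-BET alone 0.842 and 0.392 RPKM and 0.786 and 0.353 RPKM. All these libraries lay under every library of RANKL alone and of untreated cells. Against RANKL it fell at 14 hours (log2 fold change -5.02, SE 0.73, adjusted p = 0.000219) and at 24 hours (log2 fold change -6.16, SE 0.75, adjusted p = 3.57e-05). I-BET alone lowered it against untreated cells as well, at 14 hours (log2 fold change -4.27, SE 0.71, adjusted p = 0.00108) and at 24 hours (log2 fold change -4.38, SE 0.71, adjusted p = 0.000684). At 4 hours it had 8.22 and 3.60 RPKM with RANKL+I-BET against 13.3 and 6.62 RPKM with RANKL (log2 fold change -0.77, SE 0.60, adjusted p = 0.539), a difference called only with the block (8.12e-05). Within each of the 10 groups library 1 had the higher value, by 1.51 to 2.61 times. In order of mean level, the 24-hour and 14-hour RANKL groups stood first, and untreated, 4-hour RANKL, 4-hour RANKL+I-BET and 4-hour I-BET followed with overlapping libraries. The 4 groups with I-BET at 14 or 24 hours came last and also overlapped.

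Atp6v0d1, the general form (ENSMUSG00000013160, chr8:105524465-105566047 in mm10), moved the other way. It had 31.9 and 36.9 RPKM with RANKL at 24 hours against 46.1 and 42.2 RPKM in untreated cells (log2 fold change -0.41, SE 0.09, adjusted p = 0.00741). At 14 hours it had 33.4 and 34.9 RPKM (log2 fold change -0.37, SE 0.09, adjusted p = 0.0136). Adding I-BET to RANKL gave 66.1 and 68.00 RPKM at 24 hours (log2 fold change 0.93, SE 0.09, adjusted p = 6.68e-06 against RANKL). At 14 hours it gave 59.7 and 58.8 RPKM (log2 fold change 0.75, SE 0.09, adjusted p = 6.55e-05). I-BET alone gave 72.1 and 75.97 RPKM at 24 hours, above the untreated libraries (log2 fold change 0.67, SE 0.09, adjusted p = 0.000197). At 14 hours it gave 61.6 and 59.997 RPKM (log2 fold change 0.37, SE 0.09, adjusted p = 0.0167). The call of Atp6v0d1 in RANKL against untreated cells at 24 hours was lost without RANKL library 1 or untreated library 2 (adjusted p 0.0576 to 0.0952). The call of Atp6v0d1 in RANKL against untreated cells at 14 hours was lost without RANKL library 1 or untreated library 2 (adjusted p 0.0907 to 0.113). The call of Atp6v0d1 in I-BET against untreated cells at 14 hours was lost without I-BET library 1, I-BET library 2, untreated library 1 or untreated library 2 (adjusted p 0.0715 to 0.109). Its rises against RANKL were not lost when any 1 library was left out. Of the RPKM of both d forms together, Atp6v0d2 made up 63.8% ± 9.03 with RANKL at 24 hours against 20.3% ± 8.46 in untreated cells (SD, n = 2 each). Its share was 1.33% ± 0.849 with RANKL+I-BET at 24 hours and 0.770% ± 0.436 with I-BET alone (SD, n = 2 each). No library with RANKL at 24 hours (70.2% and 57.4%) overlapped an untreated library (26.3% and 14.3%).

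**Figure D2:**
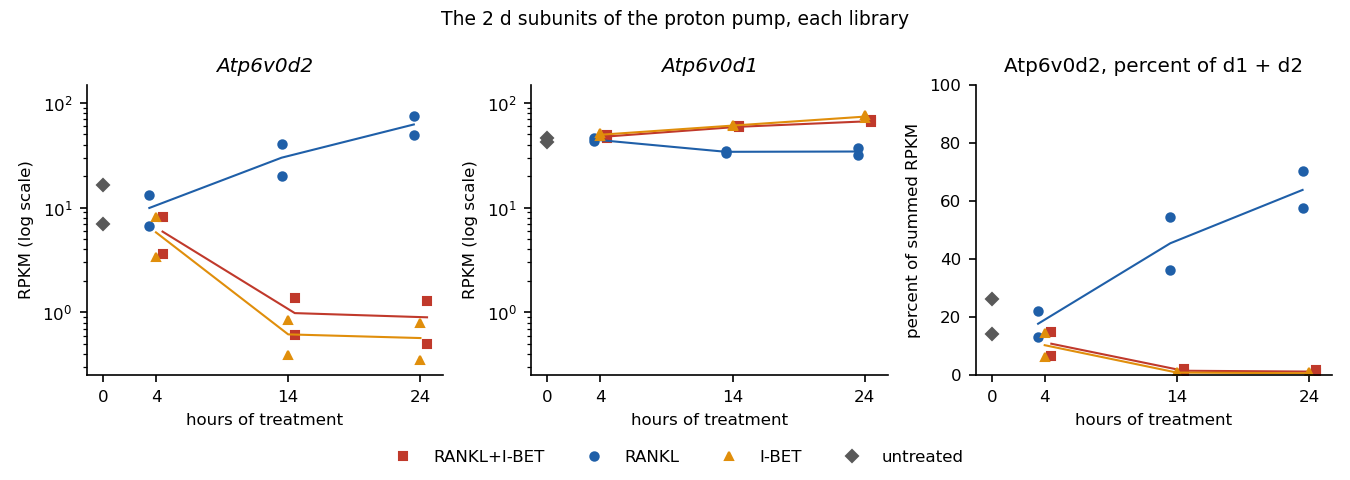
RPKM per library of Atp6v0d2 and Atp6v0d1 (log axis) and the percentage of their summed RPKM that was Atp6v0d2, by hours of treatment, with points for libraries and lines for group means. The share reached 63.8% with RANKL at 24 hours and was 1.33% with RANKL+I-BET, while Atp6v0d1 was highest in the groups with I-BET.

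Of the a subunits, which carry protons across the membrane with the ring, Atp6v0a1 (ENSMUSG00000019302, chr11:101009452-101063719 in mm10) fell with RANKL and rose with I-BET. Atp6v0a1 had 2.58 and 2.74 RPKM with RANKL at 24 hours against 4.75 and 4.63 RPKM in untreated cells (log2 fold change -0.87, SE 0.14, adjusted p = 0.000670). The groups with both agents had 7.59 and 9.20 RPKM at 4 hours, 7.46 and 8.87 RPKM at 14 hours and 9.10 and 7.86 RPKM at 24 hours, against 4.93 and 4.94, 3.001 and 3.12 and 2.58 and 2.74 RPKM with RANKL. The groups did not overlap at any hour, and the rise was called at 4 hours (log2 fold change 0.75, SE 0.14, adjusted p = 0.00363), 14 hours (log2 fold change 1.37, SE 0.14, adjusted p = 1.38e-05) and 24 hours (log2 fold change 1.64, SE 0.14, adjusted p = 2.18e-06). I-BET alone raised it against untreated cells at 4 hours (log2 fold change 0.73, SE 0.14, adjusted p = 0.00530), 14 hours (log2 fold change 0.85, SE 0.14, adjusted p = 0.00113) and 24 hours (log2 fold change 1.07, SE 0.14, adjusted p = 0.000125), with 10.9 and 9.92 RPKM at 24 hours. The call of Atp6v0a1 in RANKL against untreated cells at 14 hours was lost without RANKL library 1 or untreated library 2 (adjusted p 0.0649 to 0.0695). The call of Atp6v0a1 in I-BET against untreated cells at 4 hours was lost without I-BET library 2 or untreated library 1 (adjusted p 0.0532 to 0.0701). Over the 16 comparisons it was called in 9, more than any other member. The a3 form, Tcirg1, which is no member, had 76.8 and 71.3 RPKM with RANKL at 24 hours against 66.5 and 58.6 RPKM in untreated cells (log2 fold change 0.20, SE 0.17, adjusted p = 0.503). It had 75.5 and 62.6 RPKM with RANKL+I-BET (log2 fold change -0.13, SE 0.17, adjusted p = 0.626 against RANKL). Tcirg1 made up 85.3% ± 2.32 of the RPKM of the a1, a2 and a3 forms with RANKL at 24 hours, 75.3% ± 1.34 with RANKL+I-BET and 78.6% ± 1.84 in untreated cells (SD, n = 2 each). Atp6v0a2, the other general a form, was called in 0 of 16 comparisons, and in 6 with the block, with the smallest block p in RANKL+I-BET against RANKL at 24 hours (log2 fold change 0.45, SE 0.17, adjusted p = 0.0646, and 3.72e-05 with the block).

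Of the 16 general pump subunits and accessory proteins 6 rose and 2 fell with RANKL at 24 hours, with a median log2 fold change of 0.32 beside 0.05 over all genes. In the V1 sector, whose parts assemble into the ATP-splitting head and stalk, 4 of 8 rose and 0 fell, and 0 fell with the block as well (6 rose), by DESeq2 or at an unadjusted p under 0.05. Of all genes 8.04% rose and 10.9% fell (18.7% and 18.1% with the block), so the count of falls is near the share of all genes. The catalytic subunit Atp6v1a had 104 and 101 RPKM with RANKL at 24 hours and 64.2 and 57.7 RPKM at 14 hours, against 80.2 and 68.4 RPKM in untreated cells. It was lower than untreated at 14 hours (log2 fold change -0.28, SE 0.09, adjusted p = 0.0494) and higher at 24 hours (log2 fold change 0.42, SE 0.09, adjusted p = 0.00545). Atp6v1b2, the second subunit of the head, had 96.7 and 81.99 RPKM against 70.1 and 51.4 RPKM in untreated cells (log2 fold change 0.52, SE 0.12, adjusted p = 0.00610), with no overlap. At 14 hours it had 86.3 and 75.5 RPKM (log2 fold change 0.42, SE 0.12, adjusted p = 0.0213). Under RANKL+I-BET Atp6v1b2 had 56.1 and 45.8 RPKM at 24 hours and 54.2 and 47.8 RPKM at 14 hours, under all RANKL libraries of the same hour. It thus fell at 24 hours (log2 fold change -0.84, SE 0.12, adjusted p = 0.000109) and at 14 hours (log2 fold change -0.71, SE 0.12, adjusted p = 0.000564). With I-BET alone it had 47.8 and 40.7 RPKM at 14 hours and 49.5 and 49.1 RPKM at 24 hours, below the untreated libraries. The falls were called at 14 hours (log2 fold change -0.54, SE 0.12, adjusted p = 0.00644) and at 24 hours (log2 fold change -0.37, SE 0.12, adjusted p = 0.0422). Atp6v1c1, a stalk subunit, rose with RANKL at 24 hours (log2 fold change 0.38, SE 0.11, adjusted p = 0.0236) and fell with RANKL+I-BET against RANKL (log2 fold change -0.36, SE 0.11, adjusted p = 0.0230). The call of Atp6v1a in RANKL against untreated cells at 24 hours was lost without untreated library 2 (adjusted p = 0.0711). The call of Atp6v1a in RANKL against untreated cells at 14 hours was lost without RANKL library 1, RANKL library 2, untreated library 1 or untreated library 2 (adjusted p 0.0968 to 0.224). The call of Atp6v1b2 in RANKL against untreated cells at 24 hours was lost without RANKL library 1 or untreated library 2 (adjusted p 0.0708 to 0.106). The call of Atp6v1b2 in RANKL against untreated cells at 14 hours was lost without RANKL library 1 or untreated library 2 (adjusted p 0.124 to 0.251). The call of Atp6v1b2 in I-BET against untreated cells at 14 hours was lost without I-BET library 2 or untreated library 1 (adjusted p 0.0908 to 0.105). The call of Atp6v1b2 in I-BET against untreated cells at 24 hours was lost without I-BET library 1, I-BET library 2 or untreated library 1 (adjusted p 0.150 to 0.359). The call of Atp6v1c1 in RANKL against untreated cells at 24 hours was lost without RANKL library 2 or untreated library 1 (adjusted p 0.145 to 0.231). The call of Atp6v1c1 in RANKL+I-BET against RANKL at 24 hours was lost without RANKL+I-BET library 1, RANKL+I-BET library 2 or RANKL library 2 (adjusted p 0.0539 to 0.204).

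Atp6v1d, a subunit of the rotor, was higher with either agent at 24 hours. It had 13.8 and 12.95 RPKM with RANKL at 24 hours against 8.41 and 8.47 RPKM in untreated cells (log2 fold change 0.61, SE 0.10, adjusted p = 0.000428). I-BET alone gave 13.1 and 14.6 RPKM (log2 fold change 0.64, SE 0.10, adjusted p = 0.000369). Both agents together gave 12.1 and 13.1 RPKM, which overlapped the RANKL libraries. The response to RANKL in the presence of I-BET minus that in its absence was called for Atp6v1d at 24 hours (log2 difference -0.75, SE 0.14, adjusted p = 0.00379). Atp6v1e1, Atp6v1f, Atp6v1g1 and Atp6v1h, the remaining V1 subunits, were not called in any of the 16 comparisons, and neither were the V0 subunits Atp6v0b and Atp6v0e. With the block each was called in 2 to 7 of them, Atp6v1f in the most (log2 fold change 0.56, SE 0.22, adjusted p = 0.0979, and 1.70e-05 with the block, in I-BET against untreated cells at 24 hours). Atp6v0c had 6.12 and 6.72 RPKM at 14 hours and 6.81 and 5.98 RPKM at 24 hours of RANKL against 4.51 and 4.34 RPKM in untreated cells, with no overlap. It rose at 14 hours (log2 fold change 0.54, SE 0.16, adjusted p = 0.0288) and at 24 hours (log2 fold change 0.48, SE 0.16, adjusted p = 0.0478). The call of Atp6v0c in RANKL against untreated cells at 14 hours was lost without RANKL library 2, untreated library 1 or untreated library 2 (adjusted p 0.105 to 0.181). The call of Atp6v0c in RANKL against untreated cells at 24 hours was lost without RANKL library 1, RANKL library 2, untreated library 1 or untreated library 2 (adjusted p 0.0778 to 0.234).

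Of the accessory proteins, which assist pump assembly, Atp6ap2 moved and Atp6ap1 was not called in any comparison without the block (3 with it). Atp6ap2, also known as the prorenin receptor, had 118 and 132 RPKM at 14 hours and 137 and 160.3 RPKM at 24 hours of RANKL against 79.8 and 83.7 RPKM in untreated cells. The groups did not overlap (log2 fold change 0.61, SE 0.17, adjusted p = 0.0250 at 14 hours and log2 fold change 0.81, SE 0.17, adjusted p = 0.00453 at 24 hours). Adding I-BET left Atp6ap2 at 73.7 and 84.2 RPKM at 14 hours and 82.8 and 78.1 RPKM at 24 hours, all below RANKL alone. It fell at 14 hours (log2 fold change -0.71, SE 0.17, adjusted p = 0.00869) and at 24 hours (log2 fold change -0.92, SE 0.17, adjusted p = 0.00129). The untreated libraries overlapped these values. The call of Atp6ap2 in RANKL against untreated cells at 14 hours was lost without RANKL library 2, untreated library 1 or untreated library 2 (adjusted p 0.0620 to 0.193). The call of Atp6ap2 in RANKL against untreated cells at 24 hours was lost without untreated library 1 (adjusted p = 0.0597). The call of Atp6ap2 in RANKL+I-BET against RANKL at 14 hours was lost without RANKL+I-BET library 1 or RANKL library 2 (adjusted p 0.0722 to 0.0981). With RANKL+I-BET against RANKL at 24 hours 2 of the 16 general pump genes rose (Atp6v0a1 and Atp6v0d1) and 4 fell (Atp6v1a, Atp6v1b2, Atp6v1c1 and Atp6ap2), with a median of -0.10 beside -0.05 over all genes. The block gave 6 and 6. Of all genes 13.9% rose and 12.9% fell (23.1% and 23.5% with the block), so without the block the count of rises is near its share. Atp6v1a had 85.1 and 88.9 RPKM with RANKL+I-BET (log2 fold change -0.27, SE 0.09, adjusted p = 0.0462). The call of Atp6v1a in RANKL+I-BET against RANKL at 24 hours was lost without RANKL+I-BET library 1, RANKL+I-BET library 2, RANKL library 1 or RANKL library 2 (adjusted p 0.121 to 0.305).

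Among the lysosomal enzymes 0 of 10 rose and 3 fell with RANKL at 24 hours, with a median of -0.33 (block 1 and 6), beside 8.04% and 10.9% of all genes (18.7% and 18.1% with the block). By DESeq2, or at an unadjusted p under 0.05 in edgeR, 0 rose as well. The peptidase Lgmn, which cleaves after asparagine and processes cathepsins (ENSMUSG00000021190, chr12:102394084-102439813 in mm10), had 145 and 169.8 RPKM at 4 hours, 49.8 and 65.7 RPKM at 14 hours and 51.7 and 62.8 RPKM at 24 hours of RANKL, against 187 and 209.6 RPKM in untreated cells. The RANKL libraries at each hour lay below the untreated ones. The difference at 4 hours was not called (log2 fold change -0.41, SE 0.22, adjusted p = 0.459, and 0.000504 with the block). The fall was called at 14 hours (log2 fold change -1.78, SE 0.23, adjusted p = 0.000112) and at 24 hours (log2 fold change -1.85, SE 0.23, adjusted p = 6.12e-05). Cells given both agents had Lgmn at 98.9 and 122 RPKM at 24 hours, above RANKL (log2 fold change 0.92, SE 0.23, adjusted p = 0.00770) and below the untreated libraries. I-BET alone gave 133 and 143 RPKM at 24 hours. The response of Lgmn to RANKL in the presence of I-BET minus that in its absence was called at 24 hours (log2 difference 1.53, SE 0.32, adjusted p = 0.0108). At 14 hours this difference was 1.31 (SE 0.32, adjusted p = 0.0444). The call of Lgmn in RANKL+I-BET against RANKL at 24 hours was lost without RANKL+I-BET library 2 or RANKL library 1 (adjusted p 0.0667 to 0.0863).

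Lipa, the acid lipase that frees cholesterol from its esters (ENSMUSG00000024781, chr19:34492318-34527474 in mm10), had 106 and 103 RPKM at 14 hours and 84.2 and 101 RPKM at 24 hours of RANKL against 249 and 224 RPKM in untreated cells. Both RANKL groups lay below the untreated libraries. The fall was called at 14 hours (log2 fold change -1.18, SE 0.12, adjusted p = 1.23e-05) and at 24 hours (log2 fold change -1.40, SE 0.12, adjusted p = 1.84e-06). Cells given both agents had Lipa at 248 and 251 RPKM and 222 and 195 RPKM at these hours, above RANKL, and at 14 hours overlapping the untreated range. The rise over RANKL was called at 14 hours (log2 fold change 1.21, SE 0.12, adjusted p = 7.73e-06) and at 24 hours (log2 fold change 1.14, SE 0.12, adjusted p = 8.17e-06). I-BET alone left 249.8 and 199 RPKM at 24 hours, overlapping the untreated libraries (log2 fold change -0.15, SE 0.12, adjusted p = 0.433). The difference between the RANKL responses with and without I-BET was 1.18 at 14 hours (SE 0.16, adjusted p = 0.00160) and 1.29 at 24 hours (SE 0.17, adjusted p = 0.000332). None of these calls of Lipa was lost when any 1 library was left out.

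Among the glycosidases, which remove sugars from glycolipids and glycoproteins, Hexa and Gla were called with RANKL. Hexa, the alpha chain of the enzyme that breaks down a ganglioside, had 57.4 and 68.7 RPKM at 24 hours of RANKL against 98.4 and 111 RPKM in untreated cells (log2 fold change -0.79, SE 0.24, adjusted p = 0.0342). Gla, alpha-galactosidase, had 4.40 and 5.47 RPKM at 14 hours of RANKL against 9.32 and 9.45 RPKM in untreated cells (log2 fold change -0.93, SE 0.25, adjusted p = 0.0172). At 24 hours it had 6.45 and 7.63 RPKM (log2 fold change -0.46, SE 0.24, adjusted p = 0.224). The groups of both called comparisons did not overlap. The call of Hexa in RANKL against untreated cells at 24 hours was lost without RANKL library 1, RANKL library 2 or untreated library 2 (adjusted p 0.0548 to 0.220). The call of Gla in RANKL against untreated cells at 14 hours was lost without RANKL library 1 or untreated library 2 (adjusted p 0.114 to 0.135). Gaa, Gusb, Neu1 and Glb1 were not called in any comparison, and neither was the peptidase Scpep1. With the block these were called in 3 (Gaa), 7 (Gusb), 6 (Neu1), 4 (Glb1) and 4 (Scpep1) of the 16 comparisons. Neu1, a sialidase, had 25.2 and 29.5 RPKM with RANKL+I-BET at 24 hours against 12.7 and 16.5 RPKM with RANKL, with no overlap (log2 fold change 0.87, SE 0.31, adjusted p = 0.0530, and 6.65e-07 with the block). The peptidase Tpp1 had 22.7 and 21.7 RPKM with RANKL at 14 hours against 31.2 and 25.4 RPKM in untreated cells (log2 fold change -0.34, SE 0.08, adjusted p = 0.00650). With RANKL+I-BET at that hour it had 27.5 and 26.7 RPKM, above RANKL (log2 fold change 0.24, SE 0.08, adjusted p = 0.0392). The call of Tpp1 in RANKL against untreated cells at 14 hours was lost without untreated library 1 (adjusted p = 0.0676). The call of Tpp1 in RANKL+I-BET against RANKL at 14 hours was lost without RANKL+I-BET library 1, RANKL+I-BET library 2, RANKL library 1 or RANKL library 2 (adjusted p 0.0984 to 0.134). Against RANKL at 24 hours 2 of 10 enzymes rose, Lgmn and Lipa, and 0 fell, with a median of 0.31 (block 5 and 1). Without the block these counts are near the shares of all genes, which were 13.9% and 12.9% (23.1% and 23.5% with the block). By DESeq2, or at an unadjusted p under 0.05 in edgeR, 0 fell as well.

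**Figure D3:**
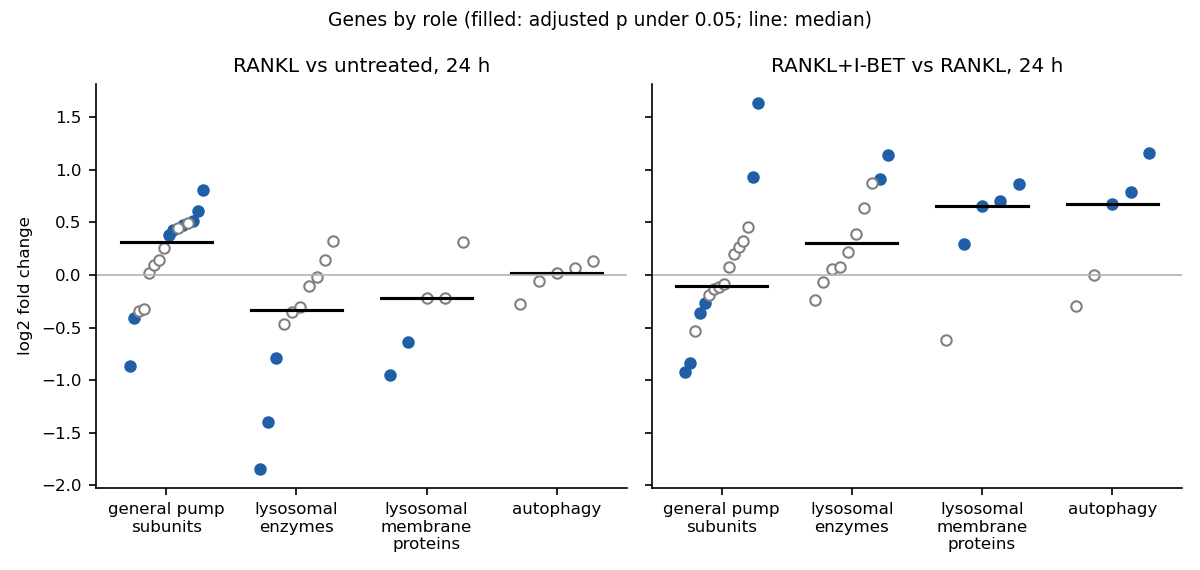
Log2 fold change of each gene by role at 24 hours, for RANKL against untreated cells and RANKL+I-BET against RANKL, with filled points for adjusted p under 0.05 and lines at the medians. The median of the 16 general pump genes was 0.32 and that of the 10 enzymes -0.33 with RANKL, and they were -0.10 and 0.31 with I-BET added.

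In the individual RANKL libraries at 24 hours, the median log2 difference from the untreated mean was 0.24 and 0.41 for the general pump genes and -0.40 and -0.24 for the enzymes. Single genes went against their list: the pump genes Atp6v0a1 and Atp6v0d1 fell, and the enzymes Scpep1 (log2 fold change 0.33) and Glb1 (log2 fold change 0.15) had positive values that were not called. These medians describe the lists, whose members were chosen with earlier results known, and no test was made of the difference between them.

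Of the 2 receptors that carry newly made enzymes to the lysosome by their mannose 6-phosphate tag, 1 was called higher with RANKL. M6pr, the cation-dependent receptor, had 152 and 171 RPKM at 4 hours, 202 and 213 RPKM at 14 hours and 182 and 179.99 RPKM at 24 hours of RANKL, against 119.6 and 106 RPKM in untreated cells. All 6 RANKL libraries lay above both untreated ones. The rise was called at 4 hours (log2 fold change 0.46, SE 0.10, adjusted p = 0.0186), 14 hours (log2 fold change 0.89, SE 0.10, adjusted p = 3.80e-05) and 24 hours (log2 fold change 0.64, SE 0.10, adjusted p = 0.000412). Under both agents M6pr had 142 and 141 RPKM at 14 hours and 119 and 99.8 RPKM at 24 hours, below RANKL. The fall was called at 14 hours (log2 fold change -0.60, SE 0.10, adjusted p = 0.000629) and at 24 hours (log2 fold change -0.76, SE 0.10, adjusted p = 7.03e-05). Cells with I-BET alone had 97.7 and 99.3 RPKM at 14 hours and 92.7 and 92.3 RPKM at 24 hours (log2 fold change -0.36, SE 0.10, adjusted p = 0.0223 against untreated). At 14 hours it was higher with both agents than with I-BET alone (log2 fold change 0.57, SE 0.10, adjusted p = 0.0165). The call of M6pr in RANKL against untreated cells at 4 hours was lost without RANKL library 2, untreated library 1 or untreated library 2 (adjusted p 0.104 to 0.194). The call of M6pr in I-BET against untreated cells at 24 hours was lost without I-BET library 1, I-BET library 2, untreated library 1 or untreated library 2 (adjusted p 0.0890 to 0.0964). The call of M6pr in RANKL+I-BET against I-BET at 14 hours was lost without RANKL+I-BET library 1, RANKL+I-BET library 2, I-BET library 1 or I-BET library 2 (adjusted p 0.101 to 0.163). Igf2r, the larger receptor of this kind, had a mean of 58.9 RPKM at 4 hours and 49.2 RPKM at 14 hours of RANKL. Both groups lay above the untreated libraries (mean 37.0 RPKM) without a call. The log2 fold change was 0.61 at 4 hours (SE 0.21, adjusted p = 0.141, and 0.00263 with the block). At 14 hours it was 0.42 (SE 0.21, adjusted p = 0.198, and 0.0116 with the block). At 24 hours of RANKL the mean was 40.5 RPKM. Igf2r had 25.6 and 17.8 RPKM with I-BET at 24 hours against 43.1 and 30.9 RPKM in untreated cells, with no overlap (log2 fold change -0.84, SE 0.21, adjusted p = 0.0123). The call of Igf2r in I-BET against untreated cells at 24 hours was lost without I-BET library 2 or untreated library 1 (adjusted p 0.113 to 0.139).

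Npc2, which passes cholesterol to the membrane protein NPC1 inside the lysosome, rose with RANKL. It had 89.03 and 107 RPKM at 14 hours and 103 and 111 RPKM at 24 hours against 62.9 and 60.8 RPKM in untreated cells, with no overlap. Its rise was called at both hours (log2 fold change 0.67, SE 0.17, adjusted p = 0.0152 at 14 hours and log2 fold change 0.74, SE 0.17, adjusted p = 0.00772 at 24 hours). The groups with both agents had 48.3 and 56.01 RPKM and 59.9 and 64.95 RPKM at these hours, below RANKL. The fall was called at 14 hours (log2 fold change -0.96, SE 0.17, adjusted p = 0.00119) and at 24 hours (log2 fold change -0.81, SE 0.17, adjusted p = 0.00300). Npc1, its partner, fell with RANKL, which gave 5.27 and 5.04 RPKM at 24 hours against 8.24 and 7.33 RPKM in untreated cells (log2 fold change -0.64, SE 0.09, adjusted p = 0.000199). Adding I-BET gave Npc1 6.74 and 6.21 RPKM (log2 fold change 0.30, SE 0.09, adjusted p = 0.0260 against RANKL). The call of Npc2 in RANKL against untreated cells at 14 hours was lost without RANKL library 2, untreated library 1 or untreated library 2 (adjusted p 0.0689 to 0.144). The call of Npc2 in RANKL against untreated cells at 24 hours was lost without RANKL library 2 or untreated library 1 (adjusted p 0.0538 to 0.0703). The call of Npc1 in RANKL+I-BET against RANKL at 24 hours was lost without RANKL+I-BET library 1, RANKL library 1 or RANKL library 2 (adjusted p 0.0873 to 0.103). Psap rose with RANKL+I-BET at 24 hours, with 365 and 419 RPKM against 201 and 229.8 RPKM with RANKL (log2 fold change 0.83, SE 0.26, adjusted p = 0.0312). The call of Psap in RANKL+I-BET against RANKL at 24 hours was lost without RANKL+I-BET library 2, RANKL library 1 or RANKL library 2 (adjusted p 0.0599 to 0.182).

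Of the 5 membrane proteins 0 rose and 2 fell with RANKL at 24 hours (median -0.22), and 4 rose and 0 fell with RANKL+I-BET against RANKL (median 0.66). DESeq2 likewise gave 0 rises in the first comparison and 0 falls in the second, and at an unadjusted p under 0.05 edgeR had 0 and 1. With the block 1 rose and 3 fell in the first and 4 rose and 1 fell in the second. Of all genes 8.04% rose and 10.9% fell in the first (18.7% and 18.1% with the block). In the second 13.9% rose and 12.9% fell (23.1% and 23.5% with the block). With 5 genes a count of 0 is near these shares. Lamp2, which with Lamp1 coats the lysosomal membrane and serves in autophagy, had 20.4 and 22.7 RPKM at 14 hours and 16.5 and 21.6 RPKM at 24 hours of RANKL, against 33.3 and 37.8 RPKM in untreated cells. The RANKL libraries lay below the untreated ones. Its fall was called at 14 hours (log2 fold change -0.73, SE 0.18, adjusted p = 0.0131) and at 24 hours (log2 fold change -0.95, SE 0.18, adjusted p = 0.00222). Under both agents Lamp2 had 34.6 and 36.2 RPKM at 24 hours, overlapping the untreated libraries and above RANKL (log2 fold change 0.86, SE 0.18, adjusted p = 0.00297). Lamp1 had 339 and 394 RPKM with RANKL+I-BET at 24 hours against 210.5 and 245 RPKM with RANKL (log2 fold change 0.66, SE 0.15, adjusted p = 0.00455). It had 374 and 401 RPKM with I-BET against 259.6 and 252 RPKM in untreated cells (log2 fold change 0.52, SE 0.15, adjusted p = 0.0270). Mcoln1, a calcium channel of the lysosome, had 5.91 and 6.43 RPKM at 14 hours and 6.52 and 6.69 RPKM at 24 hours with RANKL+I-BET, against 3.39 and 4.26 RPKM and 3.85 and 4.08 RPKM with RANKL. These groups did not overlap (log2 fold change 0.64, SE 0.18, adjusted p = 0.0230 at 14 hours and log2 fold change 0.70, SE 0.18, adjusted p = 0.0113 at 24 hours). The tetraspanin Cd63 was called in 0 of 16 comparisons, and in 9 with the block. It was lower in both RANKL+I-BET libraries than in both RANKL libraries at 24 hours (log2 fold change -0.62, SE 0.27, adjusted p = 0.112, and 1.43e-05 with the block). The call of Lamp2 in RANKL against untreated cells at 14 hours was lost without RANKL library 1 or untreated library 2 (adjusted p 0.104 to 0.143). The call of Mcoln1 in RANKL+I-BET against RANKL at 14 hours was lost without RANKL+I-BET library 2 or RANKL library 1 (adjusted p 0.116 to 0.190). The call of Mcoln1 in RANKL+I-BET against RANKL at 24 hours was lost without RANKL+I-BET library 2 or RANKL library 1 (adjusted p 0.0522 to 0.0875). The call of Lamp1 in RANKL+I-BET against RANKL at 24 hours was lost without RANKL library 1 (adjusted p = 0.0638). The call of Lamp1 in I-BET against untreated cells at 24 hours was lost without I-BET library 1, I-BET library 2, untreated library 1 or untreated library 2 (adjusted p 0.0575 to 0.162).

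**Figure D4:**
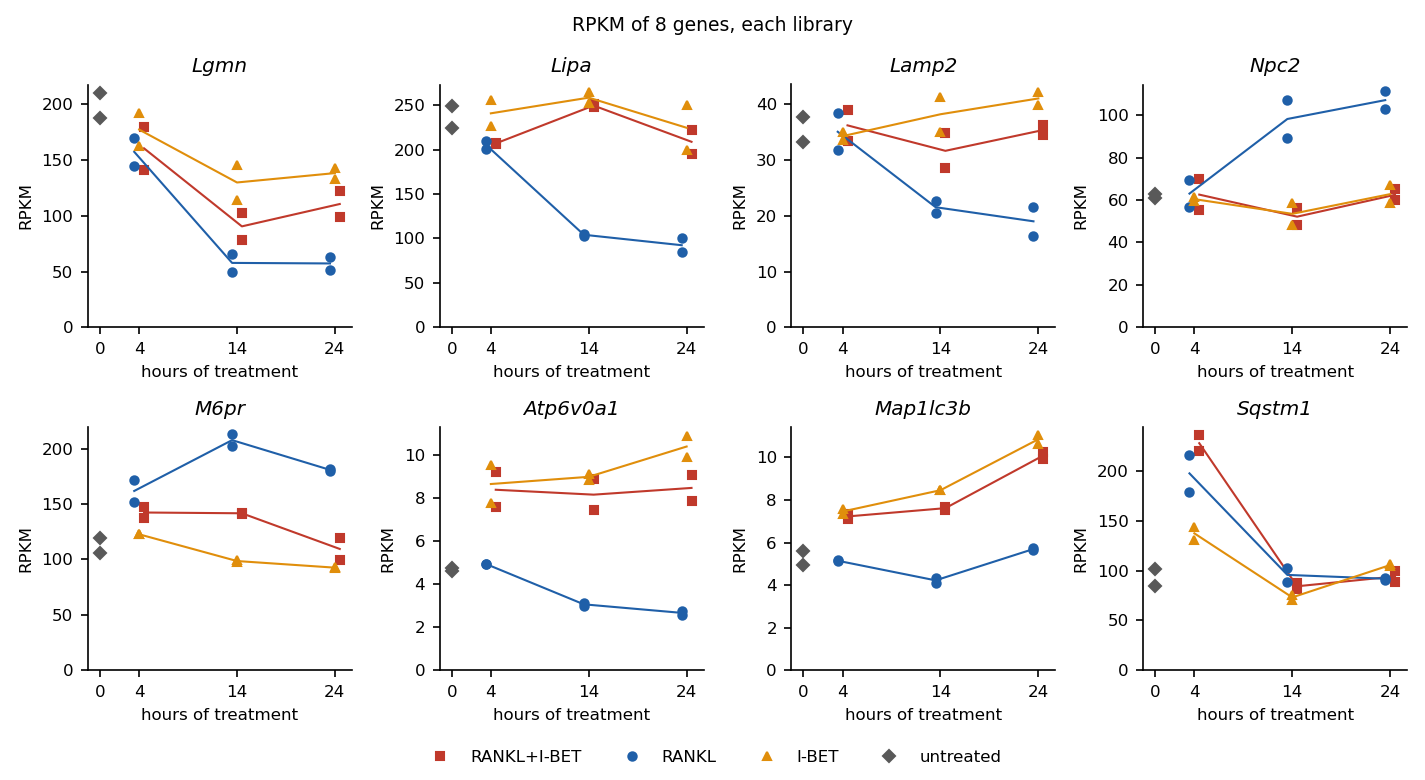
RPKM in each library (points) and group mean (lines) of Lgmn, Lipa, Lamp2, Npc2, M6pr, Atp6v0a1, Map1lc3b and Sqstm1 by hours of treatment. With RANKL alone Lgmn and Lipa were lowest at 14 and 24 hours, Npc2 and M6pr lay above the untreated libraries there, and Sqstm1 was high at 4 hours only.

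Sqstm1, the receptor p62 that binds cargo for autophagy and also takes part in RANKL signalling, changed early. It had 216 and 179.6 RPKM at 4 hours of RANKL against 101 and 84.2 RPKM in untreated cells (log2 fold change 1.03, SE 0.10, adjusted p = 8.89e-05). At 24 hours it had 92.7 and 91.01 RPKM, overlapping the untreated libraries. The 24-hour RANKL libraries lay below the 4-hour ones (log2 fold change -1.08, SE 0.10, adjusted p = 4.99e-06). In that comparison 8 of the 41 genes rose and 7 fell, against 9.77% and 12.6% of all genes (22.4% in either direction), and with the block 15 and 14 (42.7% in either direction). With I-BET added Sqstm1 had 236 and 220.4 RPKM at 4 hours, higher than with I-BET alone, which had 144 and 131 RPKM (log2 fold change 0.79, SE 0.10, adjusted p = 0.00237). I-BET alone also raised it over untreated cells at 4 hours (log2 fold change 0.42, SE 0.10, adjusted p = 0.0186). At 14 hours of I-BET it had 75.6 and 70.6 RPKM, below untreated (log2 fold change -0.43, SE 0.10, adjusted p = 0.0118). RANKL+I-BET against RANKL at 4 hours was not called (log2 fold change 0.19, SE 0.10, adjusted p = 0.311). The call of Sqstm1 in I-BET against untreated cells at 4 hours was lost without I-BET library 1, untreated library 1 or untreated library 2 (adjusted p 0.0597 to 0.150). The call of Sqstm1 in I-BET against untreated cells at 14 hours was lost without I-BET library 1, I-BET library 2 or untreated library 1 (adjusted p 0.0513 to 0.100). The call of Sqstm1 in RANKL+I-BET against I-BET at 4 hours was lost without I-BET library 2 (adjusted p = 0.0778).

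Map1lc3b, the LC3B protein that is joined to the autophagosome membrane, was higher in every library with I-BET than in any without it. It had 7.34 and 7.11 RPKM at 4 hours, 7.68 and 7.55 RPKM at 14 hours and 9.91 and 10.3 RPKM at 24 hours of RANKL+I-BET, against 5.16 and 5.13, 4.09 and 4.35 and 5.63 and 5.76 RPKM with RANKL. Against RANKL it rose at 4 hours (log2 fold change 0.47, SE 0.08, adjusted p = 0.00193), 14 hours (log2 fold change 0.80, SE 0.08, adjusted p = 9.93e-06) and 24 hours (log2 fold change 0.79, SE 0.08, adjusted p = 6.71e-06). I-BET alone gave 7.57 and 7.35 RPKM at 4 hours, 8.45 and 8.47 RPKM at 14 hours and 10.6 and 11.1 RPKM at 24 hours against 5.60 and 4.95 RPKM in untreated cells. The rise was called at each hour (log2 fold change 0.35, SE 0.08, adjusted p = 0.0138 at 4 hours, log2 fold change 0.59, SE 0.08, adjusted p = 0.000214 at 14 hours and log2 fold change 0.97, SE 0.08, adjusted p = 2.70e-06 at 24 hours). RANKL alone at 14 hours was below untreated (log2 fold change -0.32, SE 0.08, adjusted p = 0.0134). The call of Map1lc3b in RANKL against untreated cells at 14 hours was lost without RANKL library 1, untreated library 1 or untreated library 2 (adjusted p 0.0557 to 0.126). The call of Map1lc3b in I-BET against untreated cells at 4 hours was lost without I-BET library 1, I-BET library 2, untreated library 1 or untreated library 2 (adjusted p 0.0606 to 0.0998).

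Wipi1 was low in level and also higher with I-BET. It had 0.816 and 0.529 RPKM at 4 hours, 0.663 and 0.469 RPKM at 14 hours and 0.612 and 0.571 RPKM at 24 hours of RANKL+I-BET, against 0.305 and 0.212, 0.133 and 0.128 and 0.237 and 0.277 RPKM with RANKL, with no overlap at any hour. The rise was called at 4 hours (log2 fold change 1.35, SE 0.28, adjusted p = 0.00730), 14 hours (log2 fold change 2.05, SE 0.31, adjusted p = 0.000296) and 24 hours (log2 fold change 1.165, SE 0.29, adjusted p = 0.00798). With RANKL at 14 hours it was below the untreated libraries, which had 0.417 and 0.214 RPKM (log2 fold change -1.20, SE 0.32, adjusted p = 0.0191). I-BET alone gave 0.894 and 0.623 RPKM at 4 hours, 0.900 and 0.802 RPKM at 14 hours and 0.964 and 0.798 RPKM at 24 hours. Against untreated cells these were rises (log2 fold change 1.18, SE 0.30, adjusted p = 0.0219 at 4 hours, log2 fold change 1.41, SE 0.29, adjusted p = 0.00537 at 14 hours and log2 fold change 1.47, SE 0.29, adjusted p = 0.00302 at 24 hours). The call of Wipi1 in RANKL against untreated cells at 14 hours was lost without RANKL library 1, RANKL library 2 or untreated library 1 (adjusted p 0.0846 to 0.188). The call of Wipi1 in RANKL+I-BET against RANKL at 4 hours was lost without RANKL+I-BET library 1 or RANKL library 2 (adjusted p 0.0839 to 0.0842). The call of Wipi1 in RANKL+I-BET against RANKL at 24 hours was lost without RANKL library 1 (adjusted p = 0.0721). The call of Wipi1 in I-BET against untreated cells at 4 hours was lost without I-BET library 1 or untreated library 2 (adjusted p 0.144 to 0.244). The call of Wipi1 in I-BET against untreated cells at 14 hours was lost without untreated library 2 (adjusted p = 0.102). The call of Wipi1 in I-BET against untreated cells at 24 hours was lost without untreated library 2 (adjusted p = 0.0683).

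Uvrag, a partner of the Beclin 1 complex, had 5.19 and 5.90 RPKM at 4 hours of RANKL against 9.09 and 8.93 RPKM in untreated cells (log2 fold change -0.77, SE 0.15, adjusted p = 0.0103). At 24 hours it had 8.56 and 10.3 RPKM, overlapping them. Both agents together gave Uvrag 14.6 and 16.3 RPKM at 24 hours against 8.56 and 10.3 RPKM with RANKL (log2 fold change 0.68, SE 0.15, adjusted p = 0.00385). I-BET alone gave 14.7 and 15.04 RPKM (log2 fold change 0.64, SE 0.15, adjusted p = 0.00841 against untreated). Gabarapl1, another LC3-like protein, had 18.6 and 19.7 RPKM with RANKL+I-BET at 14 hours against 24.8 and 28.1 RPKM with RANKL (log2 fold change -0.51, SE 0.11, adjusted p = 0.00388). RANKL at 14 hours was above untreated cells (log2 fold change 0.39, SE 0.11, adjusted p = 0.0240). The call of Uvrag in RANKL against untreated cells at 4 hours was lost without RANKL library 1 or untreated library 2 (adjusted p 0.123 to 0.128). The call of Uvrag in RANKL+I-BET against RANKL at 24 hours was lost without RANKL library 1 (adjusted p = 0.0579). The call of Uvrag in I-BET against untreated cells at 24 hours was lost without untreated library 1 (adjusted p = 0.0787). The call of Gabarapl1 in RANKL against untreated cells at 14 hours was lost without RANKL library 2, untreated library 1 or untreated library 2 (adjusted p 0.125 to 0.225). The call of Gabarapl1 in RANKL+I-BET against RANKL at 14 hours was lost without RANKL+I-BET library 1 or RANKL library 2 (adjusted p 0.0531 to 0.0557). In all, 0 of 5 autophagy genes were called with RANKL at 24 hours (median 0.02), with or without the block. Of all genes 18.9% were called (36.8% with the block), and with 5 genes a count of 0 is near the first of these shares. With RANKL+I-BET against RANKL 3 rose and 0 fell (median 0.68; 13.9% and 12.9% of all genes). With RANKL, DESeq2 also called 0 and edgeR had 0 at an unadjusted p under 0.05. With RANKL+I-BET, 1 gene was lower by each of these.

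The response to RANKL in the presence of I-BET was set against that in its absence. For each hour this was a contrast of 4 groups, within the fit over all 20 libraries. The untreated group of every contrast was that of hour 0. In these differences a changed response to RANKL and time in culture therefore cannot be told apart. For the 41 genes 2 of these differences were called higher and 1 lower at 24 hours, against 3.94% and 1.32% of all genes (5.25% in either direction), and 2 higher and 0 lower at 14 hours, against 2.28% and 0.499% (2.78% in either direction). They were those of Lgmn, Lipa and Atp6v1d given above. At 4 hours 0 were called by edgeR or DESeq2 (0.0% of all genes) and 1 had an unadjusted p under 0.05. The call of Lgmn in the difference between RANKL responses at 14 hours was lost without RANKL+I-BET library 2, I-BET library 1, I-BET library 2, RANKL library 1 or untreated library 2 (adjusted p 0.0523 to 0.189). The call of Lgmn in the difference between RANKL responses at 24 hours was lost without RANKL library 1 or untreated library 2 (adjusted p 0.0560 to 0.0629). With the block 10 were higher and 10 lower at 24 hours (18.3% of all genes in either direction), 9 and 2 at 14 hours (11.7%), and 1 and 0 at 4 hours (1.22%). For Atp6v0d2 the difference at 24 hours was -1.78 (SE 0.93, adjusted p = 0.360, and 1.01e-05 with the block). RANKL+I-BET against I-BET gave Atp6v0d2 a log2 fold change of 0.62 at 24 hours (SE 0.71, unadjusted p = 0.401, not called by edgeR), beside 2.40 for RANKL against untreated cells.

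Other genes of the same pathways are described next. Their lists were drawn up from general knowledge, but with earlier results of these data known, so their counts are a description. All-gene shares for RANKL at 24 hours were 8.04% higher and 10.9% lower, and 13.9% and 12.9% for RANKL+I-BET against RANKL. With RANKL at 24 hours 0 of 32 other lysosomal hydrolases rose and 15 fell (median -0.51). Among them were the sulfatase Arsb (log2 fold change -1.93, SE 0.15, adjusted p = 1.21e-06) and the mannosidase Man2b1 (log2 fold change -1.46, SE 0.22, adjusted p = 0.000348). The thioesterase Ppt1 fell too (log2 fold change -1.41, SE 0.13, adjusted p = 3.25e-06). Of 11 cathepsins 1 rose and 7 fell (median -1.20). The one that rose was Ctsk, the collagen-degrading protease of osteoclasts, with 58.97 and 38.04 RPKM with RANKL against 14.3 and 12.2 RPKM in untreated cells (log2 fold change 1.82, SE 0.17, adjusted p = 3.94e-06). Of 22 other membrane proteins 0 rose and 10 fell, a list that includes Cd68, also counted among the macrophage markers. DESeq2 gave 0 rises in the hydrolases and in these membrane proteins, and edgeR had 0 and 1 at an unadjusted p under 0.05. Of 38 other autophagy genes 5 rose and 5 fell, led by Atg4a, which processes LC3-like proteins (log2 fold change 1.42, SE 0.11, adjusted p = 5.71e-07). That is 13.2% in each direction, near the shares of all genes. With the block 2 hydrolases and 2 of these membrane proteins rose, 21 and 13 fell, and 8 autophagy genes rose and 7 fell.

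With RANKL+I-BET against RANKL at 24 hours 12 of the 32 hydrolases rose and 1 fell (median 0.34). Ppt1 (log2 fold change 2.02, SE 0.13, adjusted p = 1.74e-07), Man2b1 (log2 fold change 1.85, SE 0.23, adjusted p = 3.61e-05) and the fucosidase Fuca1 (log2 fold change 1.22, SE 0.20, adjusted p = 0.000430) led the rises. Of the cathepsins 3 rose and 1 fell, the fall being that of Ctsk, which had 5.02 and 4.39 RPKM (log2 fold change -3.39, SE 0.18, adjusted p = 3.72e-08). Of the 22 other membrane proteins 12 rose and 3 fell, and of the 38 autophagy genes 17 rose and 2 fell. With the block 19 hydrolases rose and 5 fell, and 6 cathepsins rose and 2 fell. Autophagy genes that rose included Map1lc3a, a relative of Map1lc3b (log2 fold change 1.20, SE 0.16, adjusted p = 6.08e-05), and Ulk1, the kinase that starts autophagy (log2 fold change 1.15, SE 0.09, adjusted p = 1.02e-06). Atg4a fell (log2 fold change -0.97, SE 0.10, adjusted p = 1.01e-05). With I-BET alone at 24 hours 12 of 38 autophagy genes rose and 0 fell (0 by DESeq2, and 1 at an unadjusted p under 0.05), against 7.5% and 10.2% of all genes. With the block 26 rose and 1 fell. Of the 4 MITF and TFE factors 0 rose and 2 fell with RANKL at 24 hours, and 0 rose by DESeq2 or at an unadjusted p under 0.05. Tfeb fell with RANKL (log2 fold change -1.66, SE 0.28, adjusted p = 0.000766). It was higher with RANKL+I-BET than with RANKL (log2 fold change 0.91, SE 0.27, adjusted p = 0.0237). That call was lost without RANKL library 1, RANKL+I-BET library 1 or RANKL+I-BET library 2 (highest adjusted p = 0.227).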

How the data were processed

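Poly(A)-selected RNA of RAW264.7 cells was prepared with a NEBNext Ultra kit and sequenced as paired reads, per the labels' protocols. Per the submitters' processing notes, the tools were FastQC, STAR 2.5.3a and DESeq2 1.16.1, with GRCm38 (mm10). The authors deposited read counts per gene and RPKM, in which these counts are scaled for gene length and for the total of the library. For the counting, neither tool nor strand setting is given in the sources used here.

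Here R 4.3.3 with edgeR 4.0.16 was used to fit the counts of all 20 libraries, 1 mean for each group (filterByExpr, TMM scaling, robust quasi-likelihood, 10 degrees of freedom left), with Benjamini-Hochberg adjustment over 16042 genes, in 16 comparisons. Depth was 19051780 to 62313792 counts. Alternatives were RLE factors, library totals, no low-count filter, DESeq2 1.42.0, only the libraries compared, a replicate block and leaving out each library. Libraries of the same number deviated together in all 45 pairs of groups (correlations of 0.221 to 0.596), so the numbers pair the libraries. The calls and the fits that left out 1 library did not use this pairing. Only the fit with the replicate block did, and shifts between library numbers count as spread in the others. The biological coefficient of variation was 0.162, and 0.0751 with the block.

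All 41 members could be named. Values in every library were given for Atp6v0d2 and for up to 4 called rises and 4 called falls per comparison, and up to 3 called genes of a further list. Members and lists were chosen with earlier results of these data known. Sequences are from RefSeq (GRCm38.p6).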

Additional observations from a re-analysis of the deposited data

Results flagged for a closer look

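In 5 cases a difference between the RANKL responses with and without I-BET was called, by the RANKL by I-BET interaction in edgeR's quasi-likelihood fit. The response with I-BET compares groups of the same hour, and that without it compares RANKL with untreated cells of hour 0. Time in culture thus enters these differences and cannot be told apart from a changed response to RANKL. For the acid lipase Lipa the log2 difference, response with I-BET minus response without it, was 1.18 at 14 hours and 1.29 at 24 hours. For the peptidase Lgmn it was 1.31 at 14 hours and 1.53 at 24 hours. For both genes RANKL alone lowered the level against untreated cells at these hours. RANKL+I-BET against I-BET was not called for Lipa, whose libraries overlapped at 24 hours. At 14 hours the Lipa libraries overlapped after TMM scaling and not in RPKM, where those with both agents lay lower. For Lgmn both RANKL+I-BET libraries lay below both I-BET libraries at each hour, with a log2 fold change of -0.48 at 14 hours (adjusted p = 0.565, and 0.000290 with the block) and -0.32 at 24 hours (adjusted p = 1.0, and 0.0136 with the block). For the pump subunit Atp6v1d the difference was -0.75 at 24 hours, where RANKL+I-BET gave 12.1 and 13.1 RPKM, overlapping the libraries with RANKL alone.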

How the results depend on the processing

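No call changed sign under any alternative. Counts below are of the 41 genes called, and the cause of their differences was not tested beyond the lower spread the block leaves and the fewer libraries in some fits. With the replicate block, RANKL against untreated gave 6, 26 and 28 at 4, 14 and 24 hours (3, 17 and 16 without it), RANKL+I-BET against RANKL 12, 33 and 32 (3, 16 and 19), I-BET against untreated 18, 28 and 24 (4, 7 and 11), RANKL+I-BET against I-BET 2, 9 and 2 (1, 1 and 0), the interaction 1, 11 and 20 (0, 2 and 3), and RANKL at 24 against 4 hours 29 (15). With only the libraries compared, RANKL against untreated gave 1 and 7 at 4 and 14 hours, RANKL+I-BET against RANKL 0 at 4 hours, I-BET against untreated 1 and 3 at 4 and 14 hours, RANKL+I-BET against I-BET 0 and 0 at 4 and 14 hours, and the interaction 1 at 14 hours. DESeq2 gave 7 and 13 for I-BET at 4 and 14 hours, and 5 and 5 for the interaction at 14 and 24 hours. Without the low-count filter I-BET at 14 hours gave 14, RANKL+I-BET against I-BET at 14 hours 2, and the interaction at 24 hours 6. Leaving out 1 library gave 1 to 2, 6 to 11 and 10 to 12 for RANKL, 2 to 3, 13 to 14 and 11 to 16 for RANKL+I-BET against RANKL, 1 to 2, 4 to 5 and 7 to 8 for I-BET, 0 to 1, 0 and 0 for RANKL+I-BET against I-BET, 0, 1 to 2 and 2 to 3 for the interaction, and 11 to 14 for RANKL at 24 against 4 hours. A group left with 1 library is assumed to vary like the others, and it then holds 1 library number. Among all genes called, scaling by library totals made 66.3% higher with RANKL at 4 hours (53.3% with TMM), 70.6%, 54.6% and 54.6% with I-BET at 4, 14 and 24 hours (38.4%, 38.7% and 42.4%) and 45.6% with RANKL+I-BET against I-BET at 14 hours (60.7%). It moved the all-gene median by -0.13 in the interaction at 4 hours. Depth limits Wipi1 most, with 29 to 265 counts.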

Other observations

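Some members differed between the libraries of a group in the same direction in all 10 groups. Library 1 was higher in RPKM than library 2 in every group for 3 members, Atp6v0d2 (1.51 to 2.61 times), Atp6v1b2 (1.01 to 1.36 times) and Atp6v1e1 (1.01 to 1.34 times). Library 2 was higher in every group for 14 members, among them Gla, Gaa, Gusb, Hexa, Neu1, Lgmn and Scpep1, 7 of the 10 lysosomal enzymes. This order was not counted over all genes, in which libraries of the same number also deviated together. Whether it was more frequent among the members or the enzymes was therefore not tested. Of the transcription factors of lysosomal genes, Mitf was higher in library 1 in all 10 groups (1.23 to 1.95 times) and Tfeb was higher in library 2 in all 10 groups (library 1 at 0.597 to 0.983 of library 2). What the library numbers stand for is not stated in the labels, and the values are given without a test.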
